A study of Mus musculus with 12 samples.

Results

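Immediate early transcription factors are switched on within minutes of a stimulus from genes that need no new protein to be transcribed. The 10 genes described here, Fos, Fosb, Fosl2, Jun, Junb, Jund, Egr1, Atf3, Ier2 and Nr4a1, were taken by their symbols from a table of 22711 mouse genes, and all 10 were found. All 12 libraries came from a single mouse strain, RIP-rtTA; TetO-VEGF-A. Its rat insulin promoter drives the activator rtTA in beta cells, so that doxycycline (Dox) can turn on VEGF-A there. The libraries form 4 groups of 3, namely whole islets with no Dox, whole islets with Dox for 1 week, CD11b+ macrophages and CD31+ endothelial cells. Both sorted fractions came from mice given Dox for 1 week, by dispersal of purified islets and fluorescence-activated sorting, whereas whole islets were lysed as they were. The labels state neither ages nor how many animals gave a library, and p-values measure the spread between these samples, which may be technical.

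Fos and Jun proteins pair through leucine zippers into the factor AP-1, and the pair chosen sets how strongly AP-1 activates. Egr1 is a zinc finger protein, Nr4a1 (Nur77) an orphan nuclear receptor, Atf3 a stress-induced relative of AP-1 that often represses, and Ier2 a small nuclear protein. These genes answer growth factors, calcium, inflammatory signals and stress, in macrophages among many cells, and enzymatic dispersal and sorting of tissue are known to induce them too. Their levels may therefore also reflect how cells were handled. Neither sorted cell type has a sample that was not dispersed, so the levels alone cannot show this.

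Values are in the authors' normalized units, here called signal, linear with a floor of 1. Read numbers are not known from the labels or files, and libraries summed to between 17626500 and 25218800 units, with 25.3 to 35.4% of genes at the floor. Markers went with the labels: the 7 macrophage markers summed to between 247897 and 261429 in the macrophage libraries and between 207 and 522 in the endothelial ones, and the 7 endothelial markers to between 190342 and 207147 in endothelial cells and between 1419 and 1821 in macrophages. CD11b also stands on neutrophils, and the 7 neutrophil markers summed to between 3455 and 4228 in the macrophage libraries. Markers of acinar cells, the exocrine cells around islets, varied within both fractions, with sums of 25229, 383833 and 1347 in macrophage libraries 1 to 3 and of 5184, 114674 and 254 in endothelial libraries 1 to 3. Mural cell markers summed to 17040, 17030 and 63292 in endothelial libraries 1 to 3, and beta cell markers to between 2909 and 6676 in macrophages and between 490 and 608 in endothelial cells. In these bulk samples, fewer cells of a type and less RNA per cell cannot be told apart.

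Exonic length ran from 1522 bases for Ier2 to 5855 for Fosl2, with 5 of the 10 above the median of 2690 over 22660 genes with an annotation. Jun, Junb, Jund and Ier2 have 1 exon, a form held by 13.6% of genes. Exonic GC content ran from 51.9% in Fosl2 to 62.7% in Jund, above the median gene (49.1%) in every member, and Junb, Jund and Ier2 lie above the 97th percentile of genes. In build mm9, the files place Fos (ENSMUSG00000021250) at chr12:86814840-86818223 and Fosb (ENSMUSG00000003545) at chr7:19888070-19895394. Fosl2 (ENSMUSG00000029135) is at chr5:32438845-32460204, Jun (ENSMUSG00000052684) at chr4:94715725-94718913 and Atf3 (ENSMUSG00000026628) at chr1:192994175-193007219. Junb (ENSMUSG00000052837), Jund (ENSMUSG00000071076) and Ier2 (ENSMUSG00000053560) share chromosome 8, at chr8:87500811-87502617, chr8:73221638-73224515 and chr8:87185230-87186751. Nr4a1 (ENSMUSG00000023034) is at chr15:101097277-101105223, and Egr1 (ENSMUSG00000038418) is on chromosome 18. Jun, Jund and Egr1 each overlap an annotated gene of the opposite strand by 689, 543 and 200 bases, and with the use of strand not given reads of the shared stretch cannot be told apart.

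Immediate early messages are also short-lived, and the AU-rich heptamer TATTTAT, a sign of rapid decay, was looked for on the sense strand of the annotated 3′ UTRs. At least 1 copy was found in 6 of the 10 genes (Fosl2 3, Fos 2, and 1 each in Fosb, Jun, Jund and Atf3), against 23.9% of 19876 genes. At least 2 copies were found in 2 members, against 8.06% of genes. A longer 3′ UTR offers more places for a match. Lengths ran from 483 bases in Junb to 4642 in Fosl2, against a median of 893 over all genes, and were not allowed for.

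RefSeq windows of the 250 bases before the annotated start (build GRCm38.p6) were matched for 8 of the 10 genes, all but Egr1 and Ier2. The 4 shown are those of the founding members of AP-1 and of the genes with the widest gap between macrophages and islets (Atf3) and between endothelial cells and islets (Nr4a1). Capitals mark TGACG, the core of the cyclic AMP response element, on either strand (CGTCA where it lies on the other strand), or, in Jun, TGACATCA, a known AP-1 and ATF site. Fos is the plus strand of chr12:85473640-85473889, Jun the minus strand of chr4:95052223-95052472, Atf3 the minus strand of chr1:191183334-191183583 and Nr4a1 the plus strand of chr15:101266596-101266845.
Fos: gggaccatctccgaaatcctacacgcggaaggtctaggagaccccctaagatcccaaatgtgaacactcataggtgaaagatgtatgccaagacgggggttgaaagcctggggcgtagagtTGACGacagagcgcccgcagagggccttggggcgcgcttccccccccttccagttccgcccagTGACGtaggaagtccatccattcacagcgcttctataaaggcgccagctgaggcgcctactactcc
Jun: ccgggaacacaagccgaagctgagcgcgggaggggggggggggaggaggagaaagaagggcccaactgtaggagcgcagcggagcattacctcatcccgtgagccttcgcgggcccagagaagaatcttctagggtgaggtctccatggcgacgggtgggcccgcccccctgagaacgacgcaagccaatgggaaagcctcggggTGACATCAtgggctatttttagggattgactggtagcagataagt
Atf3: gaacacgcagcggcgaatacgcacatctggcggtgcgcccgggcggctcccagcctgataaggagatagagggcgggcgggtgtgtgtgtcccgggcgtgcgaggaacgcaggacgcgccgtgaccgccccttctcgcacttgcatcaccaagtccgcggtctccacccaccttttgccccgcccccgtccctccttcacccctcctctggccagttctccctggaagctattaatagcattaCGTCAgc
Nr4a1: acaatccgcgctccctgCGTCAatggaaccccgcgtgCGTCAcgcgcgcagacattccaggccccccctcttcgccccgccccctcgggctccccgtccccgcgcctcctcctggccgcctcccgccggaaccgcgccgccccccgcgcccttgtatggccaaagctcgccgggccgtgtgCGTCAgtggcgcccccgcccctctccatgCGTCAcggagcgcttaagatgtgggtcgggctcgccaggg
The core TGACG was present in 5 of the 8 windows (Fos, Fosb, Junb, Atf3 and Nr4a1), against 17.8% of 32851 RefSeq windows of the same length searched on both strands. Nr4a1 held 4 copies, starting 233, 213, 69 and 40 bases before the start, and Fos held 2, at 129 and 66 bases. TGACATCA was found in Jun alone of the 8, at 45 bases before the start (2.93% of all windows). The GC box GGGCGG, searched on both strands, was in 6 of the 8 windows, against 32.7% of all. On the same windows, TGACGTCA, TGANTCA and the CArG box bound by serum response factor were in 0 of the 8, against 1.55%, 6.75% and 1.47% of all windows. TATAAA stood 33 bases before the start of Fos (12.4% of all windows). TGACG can lie within TGACGTCA, and copies of GGGCGG can overlap. These are matches of letters in a short window and say nothing of binding. Sites further from the start were not searched, so 0 of the 8 does not mean that a gene lacks the site.

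All 10 genes had their highest group mean in the sorted macrophages, and in 9 of them, all but Fosl2, the 3 macrophage libraries lay above all 9 other libraries. The share of all genes that do so was not counted, so this count has no background. For single groups, macrophages lay without overlap above endothelial cells in 30.7% of tested genes and above Dox islets in 25.0%. Together the 10 genes held 1.15 to 1.25% of a macrophage library's summed signal and 0.320 to 0.339% of an endothelial library's. In whole islets their share was uneven, at 0.258, 0.427 and 0.132% in No Dox islets 1 to 3 and 0.274, 0.197 and 0.161% in Dox islets 1 to 3.

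**Figure D1:**
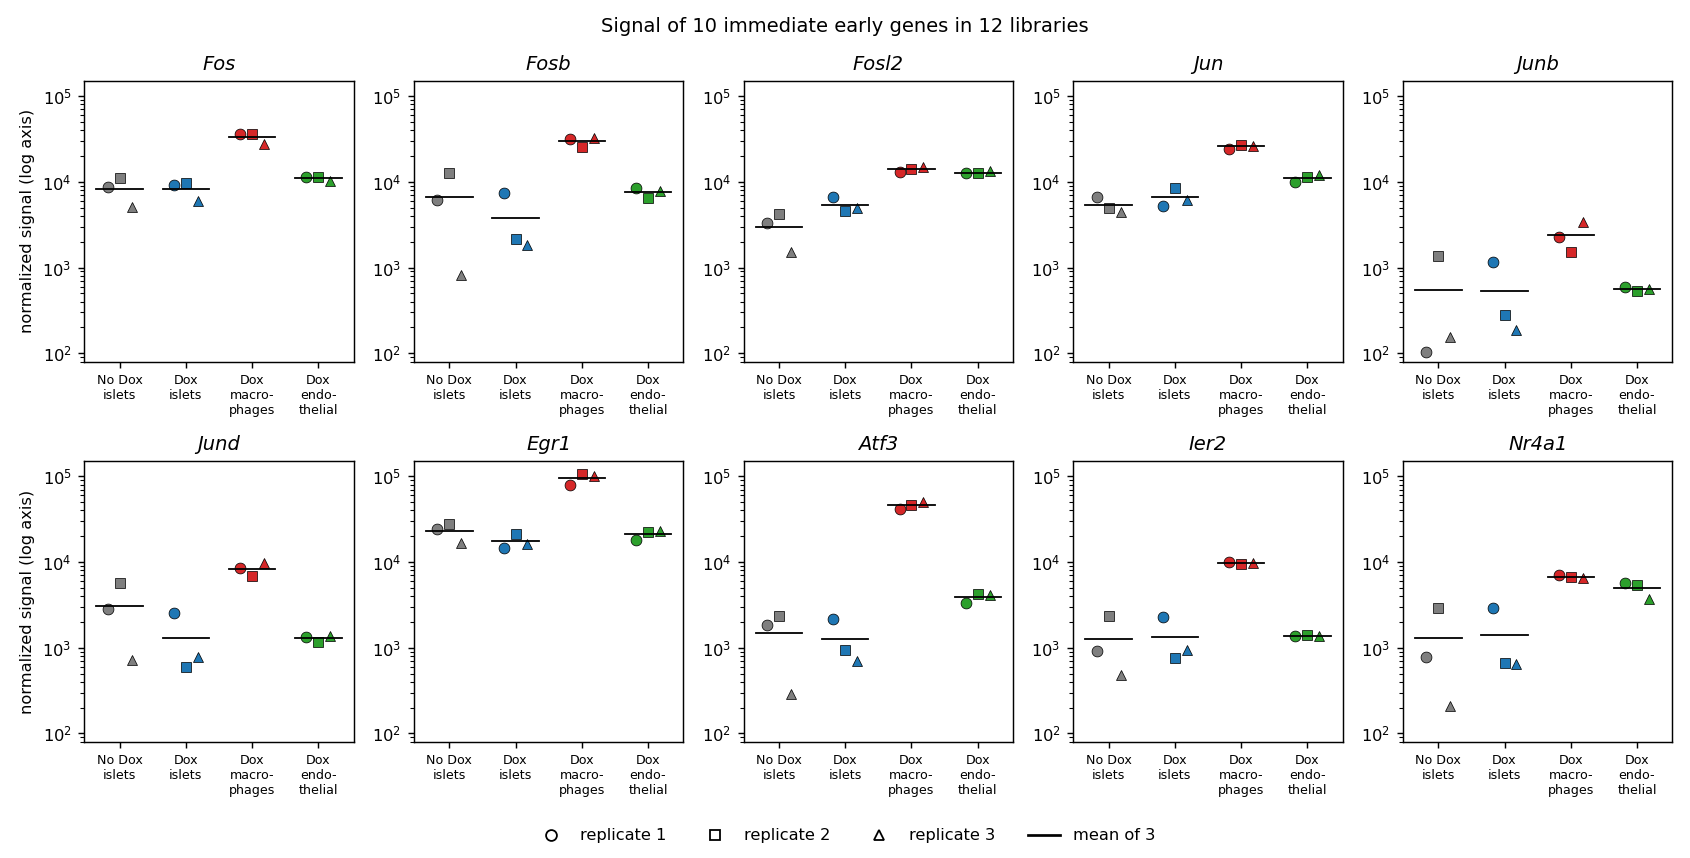
Signal of each of the 10 genes (log axis) in the 12 libraries, by group, with the replicate number as the symbol and the group mean as a bar. Macrophage libraries sit above the rest in all genes but Fosl2, and the points of whole islets spread most in Junb, Nr4a1 and Fosb.

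Among the Fos proteins, Fos is the partner made first after a stimulus. Its signal in libraries 1 to 3 was 8711, 11082 and 5049 in No Dox islets, 9241, 9711 and 5993 in Dox islets, 36433, 35984 and 27875 in macrophages and 11515, 11366 and 10111 in endothelial cells. The lowest macrophage value was above every value elsewhere. Endothelial cells came next, just above the highest Dox islet library, though No Dox islets 2 reached into their range, and both kinds of islets overlapped.
Fosb, a close relative that follows Fos, was at 6163, 12787 and 813 in No Dox islets, 7367, 2138 and 1849.8 in Dox islets, 31199.5, 25249 and 32518 in macrophages and 8393, 6503 and 7721 in endothelial cells. In No Dox islets the highest library held 15.7 times the lowest, so that the islet groups and the endothelial cells overlapped in pairs next to each other, and only the macrophages stood clear.
Fosl2 (Fra-2), which lacks the strong activation domain of Fos, was at 3301, 4158 and 1515 in No Dox islets, 6721, 4609 and 4939.8 in Dox islets, 13094, 14129 and 14769 in macrophages and 12589.9, 12614 and 13289 in endothelial cells. Here the sorted fractions overlapped with each other, lay above Dox islets, and Dox islets lay above No Dox islets.

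Jun, the main partner of Fos, was at 6599, 4913 and 4448 in No Dox islets, 5232, 8549 and 6196 in Dox islets, 24406, 27136 and 26019.8 in macrophages and 10009.5, 11347 and 11913 in endothelial cells. The order was macrophages, endothelial cells and then islets, and only the islet groups overlapped.
Junb, a weaker activator that can restrain Jun, was uneven in islets, with 103, 1369 and 153 in No Dox islets and 1150.5, 277 and 186 in Dox islets. Macrophages held 2259.7, 1498 and 3401 and endothelial cells 596, 530.1 and 564. Endothelial libraries lay within the range of both kinds of islets, and macrophages stood above all of them.
Jund, the Jun protein most often made without a stimulus, was at 2831, 5675 and 715 in No Dox islets, 2562, 596 and 773 in Dox islets, 8455, 6924 and 9721 in macrophages and 1335, 1155 and 1364 in endothelial cells. Its lowest group mean was that of endothelial cells, 1285 ± 113 (SD, n = 3), next to 1310.5 ± 1088 in Dox islets (SD, n = 3), and the 3 lower groups overlapped.

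Egr1 was at 24386.5, 27674 and 16649.9 in No Dox islets, 14510.5, 21499.5 and 16324 in Dox islets, 79444, 105527 and 101878 in macrophages and 18021, 22492 and 22912 in endothelial cells. Its mean signal per kilobase ranked 12th of 22660 genes in macrophages, 58th in endothelial cells, 41st in No Dox islets and 90th in Dox islets. Such ranks take the signal as not already scaled by gene length, which is not stated. Outside the macrophages the groups overlapped.
Atf3 was at 1819, 2375 and 286 in No Dox islets, 2170.5, 948 and 709 in Dox islets, 41488, 46001.5 and 49851 in macrophages and 3298, 4196 and 4178 in endothelial cells. Per kilobase it ranked 18th in macrophages, 414th in endothelial cells, 1340th in No Dox islets and 1959th in Dox islets. Macrophages and endothelial cells each stood clear of the groups below them, and the islet groups overlapped.
Ier2 was at 907, 2366 and 485 in No Dox islets, 2273, 750.4 and 937 in Dox islets, 9911, 9402 and 9715 in macrophages and 1358, 1397 and 1363 in endothelial cells. The sorted fractions were tight, with a highest-to-lowest ratio of 1.05 in macrophages and 1.03 in endothelial cells, against 4.88 in No Dox islets, and the 3 groups other than macrophages overlapped.
Nr4a1 was at 773, 2888 and 211 in No Dox islets, 2942, 668 and 654 in Dox islets, 7021, 6675 and 6576 in macrophages and 5700.4, 5336 and 3747 in endothelial cells. It followed the order macrophages, endothelial cells and islets, with no overlap between the first and the second or between the second and the third.

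Macrophages and endothelial cells went through the same dispersal and sorting, so this comparison asks how the genes differ between cell types handled alike. Neither cell type has a sample that was not dispersed. Levels held in the islet and responses to handling that differ by cell type therefore cannot be told apart. In macrophages 9 of the 10 were higher, while 27.7% of the 13726 genes tested were called higher and 31.5% lower (limma on log2 of signal + 1, Benjamini-Hochberg adjusted p under 0.05). The same 9 had groups that did not overlap, against 30.7% of tested genes in that direction. The median log2 difference was 1.99 over the members and -0.10 over all genes tested.
Atf3 differed most, from 3891 ± 513 in endothelial cells to 45780.3 ± 4186 in macrophages (SD, n = 3), a fitted ratio of 11.8 (95% CI 9.69 to 14.4; limma's adjusted p = 1.60e-07). Ier2 was 7.05 times higher (95% CI 6.16 to 8.06, adjusted p = 9.16e-08 with limma) and Jund 6.46 times (95% CI 5.14 to 8.12, adjusted p = 1.30e-06 with limma). Next came Egr1 with a log2 difference of 2.17 (SE 0.14), Junb with 2.00 (SE 0.27), Fosb with 1.98 (SE 0.13), Fos with 1.60 (SE 0.12) and Jun with 1.22 (SE 0.10).
Nr4a1 passed narrowly, with a log2 difference of 0.48 (SE 0.16, limma's adjusted p = 0.0297), and it no longer did without macrophage replicate 1 (0.0881), without macrophage replicate 2 (0.0670), with no filter on low values (0.116) or with the 4 groups fitted together (0.651). In that last fit, which takes 1 spread over sorted cells and islets, Fosb (0.0534) and Junb (0.0676) were not called either.
Fosl2 was not called, with a log2 difference of 0.12 (95% CI -0.07 to 0.32, limma's adjusted p = 0.238). Its interval ends below the estimate of each of the other members but overlaps the interval of Nr4a1 (95% CI 0.12 to 0.84). Differences between members were not tested.
Acinar markers were highest in replicate 2 of both fractions, and there the mean log2 level of the 10 genes differed from its group mean by 0.00 in endothelial cells and by -0.08 in macrophages. Single genes moved both ways there, from -0.59 (Junb) to 0.15 (Egr1) in macrophages and from -0.21 (Fosb) to 0.14 (Nr4a1) in endothelial cells. The part of acinar cells in these values was not tested.

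Against whole Dox islets, sorted macrophages differ in cell type, dispersal and sorting at once, and these cannot be told apart. All 10 genes were called higher in macrophages, where 21.3% of 14479 tested genes were called higher and 31.4% lower. The median log2 difference was 2.58 over the members and -0.20 over all genes tested. Groups did not overlap in 10 of the 10 genes, against 25.0% of tested genes in that direction.
Atf3 again differed most, at 40.2 times the islet level (95% CI 22.6 to 71.6, limma's adjusted p = 5.01e-06), at the 99.1 percentile of all differences. Fosb was 9.58 times higher (95% CI 4.64 to 19.8, limma's adjusted p = 0.000310), Ier2 8.27 times (95% CI 4.65 to 14.7, limma's adjusted p = 0.000114) and Jund 7.83 times (95% CI 3.73 to 16.4, limma's adjusted p = 0.000619). Log2 differences of Nr4a1, Junb and Egr1 were 2.63 (SE 0.51), 2.53 (SE 0.61) and 2.46 (SE 0.26), and those of Fos, Jun and Fosl2 were 2.03 (SE 0.25), 1.99 (SE 0.23) and 1.39 (SE 0.21).
The call of Junb (limma's adjusted p = 0.00685) was lost with no filter on low values (0.0744), and the other 9 were called under all 15 alternatives. Quantile normalization moved the median of all tested genes from -0.20 to 0.10 and the higher share of the called genes from 40.3 to 51.4%, with all 10 members called.

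Endothelial cells share the dispersal and sorting of the macrophages. Against the same whole Dox islets, cell type, dispersal and sorting again differ at once and cannot be told apart. Called higher in endothelial cells were 4 of the 10 genes, namely Nr4a1, Atf3, Fosl2 and Jun. Of 14218 tested genes, 11.5% were called higher and 21.6% lower. The median log2 difference was 0.65 over the members and 0.00 over all genes tested, and 5 of the 10 (these 4 and Fos) had groups that did not overlap, against 21.2% of tested genes in that direction.
Nr4a1 went from 1421 ± 1317 in Dox islets to 4928 ± 1039 in endothelial cells (SD, n = 3), with a fitted ratio of 4.45 (95% CI 1.91 to 10.4, limma's adjusted p = 0.0145). Atf3 was 3.41 times higher (95% CI 1.88 to 6.16, limma's adjusted p = 0.00672), Fosl2 2.40 times (95% CI 1.78 to 3.23, limma's adjusted p = 0.00102) and Jun 1.70 times (95% CI 1.21 to 2.37, limma's adjusted p = 0.0242).
The remaining 6 had log2 differences of 1.28 for Fosb (95% CI 0.22 to 2.35, limma's adjusted p = 0.0662), 0.53 for Junb (95% CI -0.81 to 1.87), 0.43 for Fos (95% CI -0.06 to 0.93), 0.29 for Egr1 (95% CI -0.20 to 0.77), 0.28 for Jund (95% CI -0.82 to 1.37) and 0.23 for Ier2 (95% CI -0.62 to 1.08). The intervals of Junb, Jund and Ier2 reach from a lower level to more than 2 times higher on the linear scale.
This count depended on single libraries. Without Dox islets replicate 1, 8 of the 10 genes were called higher, all but Fos and Egr1, with 25.8% of tested genes called higher and a median of 1.11 over the members. Without Dox islets replicate 3 or endothelial replicate 1 the count was 2, and with no filter it was 1 (Fosl2). Fosl2 was called under all 15 alternatives, Atf3 under 13, Nr4a1 under 11 and Jun under 9. Fosb was called in 4 alternatives, among them the removal of each library's GC trend (adjusted p = 0.00935 with limma) and the fit without Dox islets replicate 1 (3.88e-05). That removal was fitted within groups and narrows their spread, which favours calls. With quantile normalization the median of all tested genes moved from 0.00 to 0.28, that of the members lay 0.44 above it where it had lain 0.64 above, and the higher share of the called genes went from 34.7 to 56.8%.
The Dox islet libraries are shared by the last 2 comparisons, and the macrophage and endothelial libraries recur in the first, so the 3 are not independent of each other.

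**Figure D2:**
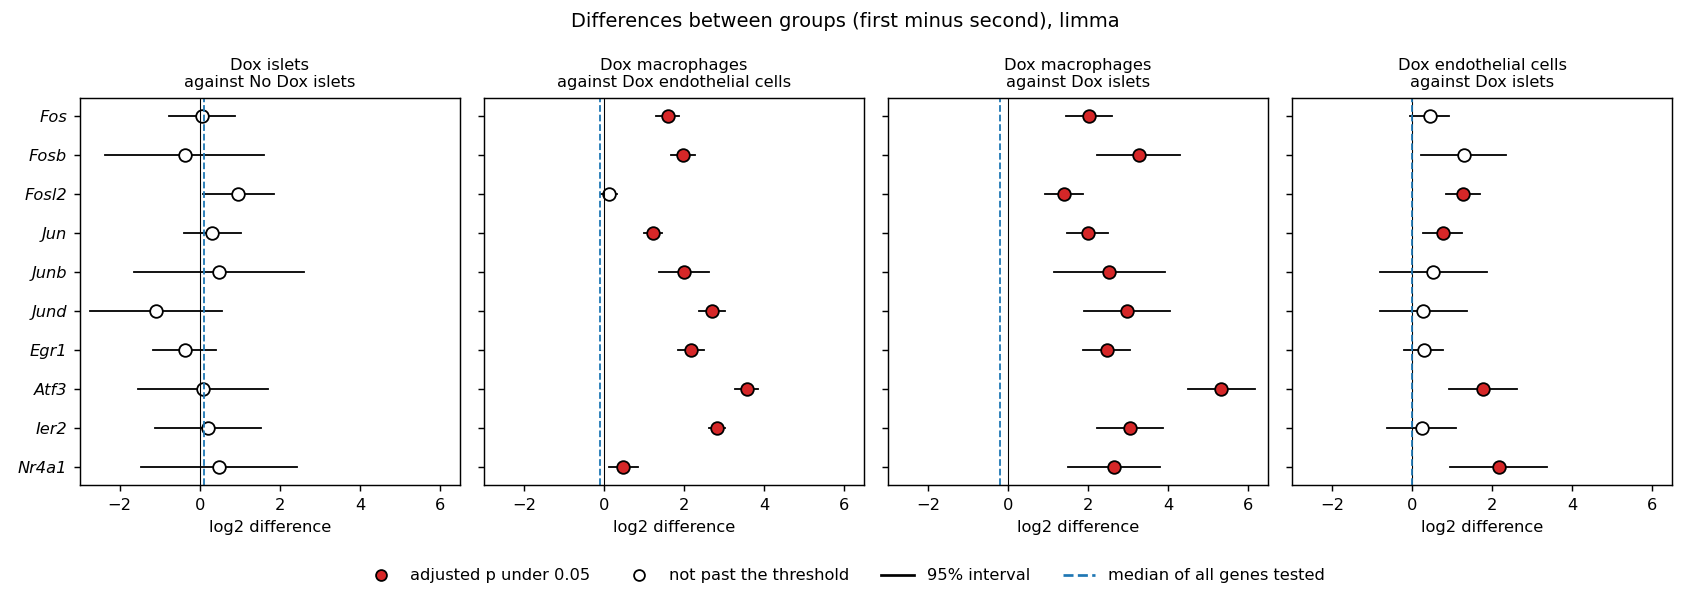
Log2 difference of each gene with its 95% confidence interval in the 4 comparisons, with filled points where limma's adjusted p was under 0.05 and a dashed line at the median of all tested genes. Filled points number 9 for macrophages against endothelial cells, 10 for macrophages against Dox islets, 4 for endothelial cells against Dox islets and 0 for Dox against No Dox islets.

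Whole islets were compared with and without Dox to ask what 1 week of Dox changes. None of the 10 genes was called by limma, where 5.74% of 14443 tested genes were, 4.33% higher and 1.41% lower. At an unadjusted p under 0.05 there was 1, Fosl2. The median log2 difference was 0.14 over the members and 0.11 over all genes tested, and of the called genes 75.4% were higher, or 60.3% with quantile normalization and 65.4% with median ratio rescaling.
Cell type markers moved between the islet groups. From No Dox to Dox islets, endothelial markers went from between 25402 and 29880 to between 73822 and 102232 and mural markers from between 47328 and 122306 to between 201411 and 421036. Macrophage markers went from between 2113 and 5534 to between 7771 and 16072, and beta cell markers from between 385363 and 678334 to between 162498 and 222836. Their part in the values below was not tested.
Fosl2 averaged 2991 ± 1349 without and 5423 ± 1136 with Dox (SD, n = 3), a log2 difference of 0.96 (95% CI 0.08 to 1.84, limma's adjusted p = 0.199). It was the only member whose islet groups did not overlap, where 15.7% of tested genes did not overlap in that direction.
The widest intervals were those of Junb, at 0.48 (95% CI -1.64 to 2.61), Fosb, at -0.38 (95% CI -2.37 to 1.61), and Nr4a1, at 0.48 (95% CI -1.46 to 2.42). Jund stood at -1.09 (95% CI -2.74 to 0.56), Atf3 at 0.08 (95% CI -1.56 to 1.71) and Ier2 at 0.21 (95% CI -1.11 to 1.52). Better bounded were Fos at 0.05 (95% CI -0.78 to 0.88), Jun at 0.31 (95% CI -0.39 to 1.02) and Egr1 at -0.38 (95% CI -1.16 to 0.40). A change of 2 times in either direction lies outside the interval of Fos alone among the 10, and for most members such a change could not be seen with this spread.
Fos and Atf3 changed sign with quantile normalization (-0.19 and -0.09) and with median ratio rescaling (-0.06 and -0.03).

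The spread within islets ran along libraries. No Dox islets 2 held the highest value of its group in 9 of the 10 genes, all but Jun, and No Dox islets 3 the lowest in 9. Dox islets 1 held the highest value in 7, all but Fos, Jun and Egr1. On average over the 10 genes, No Dox islets 2 lay 1.09 above its group mean on the log2 scale, No Dox islets 3 lay 1.18 below it (-1.18), and Dox islets 1 lay 0.74 above.
Both high libraries also deviated with GC content over all genes. Across genes, which are not independent, the Spearman correlation between a library's deviation from its group mean and exonic GC was 0.64 in No Dox islets 2 and 0.57 in Dox islets 1, and it lay between -0.35 and -0.44 in the other 4 islet libraries.
Each gene was therefore set beside the genes within 1 percentage point of its own GC content. In No Dox islets 2 against the mean of the other islets of its group, Junb lay 3.44 higher on the log2 scale, where genes of like GC had a median of 1.07 (quartiles 0.30 and 1.72). Nr4a1 lay 2.83 higher against a median of 0.98, Fosb 2.51 against 0.94, Jund 1.99 against 1.09 and Atf3 1.72 against 0.30. Jun was at -0.14 against 0.82, and Egr1, at 0.46, was close to its median of 0.51. The pattern in Dox islets 1 was alike, with Junb 2.34 against 1.05, Nr4a1 2.15 against 0.82, Fosb 1.89 against 0.74 and Atf3 1.40 against 0.25, and with Jun (-0.48 against 0.69) and Egr1 (-0.37 against 0.39) on the low side.
Macrophage markers were also highest in these libraries, summing to 5534 in No Dox islets 2, against 3033 and 2113 in No Dox islets 1 and 3, and to 16072 in Dox islets 1, against 10332 and 7771 in Dox islets 2 and 3. Neutrophil markers were highest there too (163 and 267), and endothelial (25402 and 73822), mural (47328 and 201411) and fibroblast markers (11175 and 28704) were the lowest of their group. The part of GC content and of these cell types in the islet spread was not tested. With both libraries left out, 0 of the 10 genes were called between the islet groups and 302 genes were called in all.

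**Figure D3:**
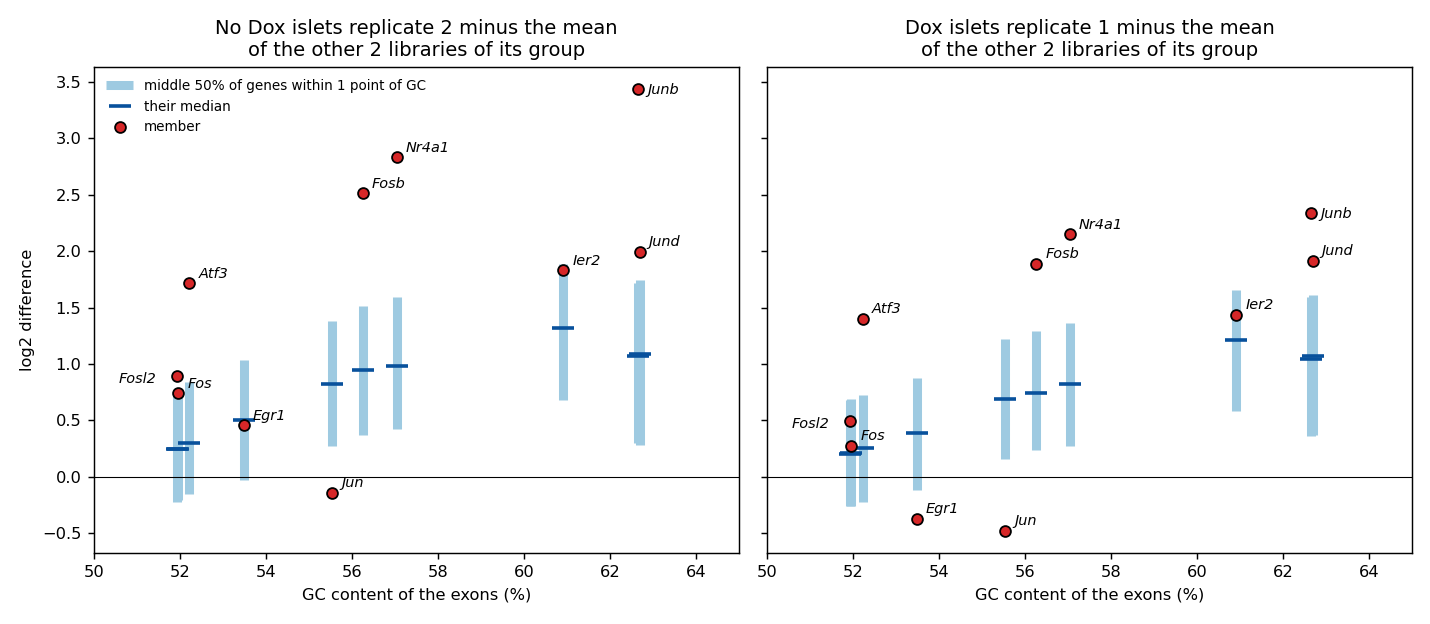
Log2 difference of No Dox islets 2 (left) and Dox islets 1 (right) from the mean of the other libraries of the same group, by exonic GC content in percent, for the 10 genes, with the median and quartiles of genes within 1 percentage point of each gene's GC. Junb, Nr4a1, Fosb, Jund and Atf3 lie above the quartile range in both libraries, and Jun lies below it in both.

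Which Fos and Jun proteins are at hand decides the make-up of AP-1, so the RNA of each family was split into shares of its summed signal per kilobase. These shares take the signal as not already scaled by gene length, which the sources used here do not state. Among Fos, Fosb and Fosl2, the share of Fosl2 was 24.7% ± 1.57 in endothelial cells against 9.80% ± 1.18 in macrophages (SD, n = 3), with ranges of 23.2 to 26.3% and 8.59 to 10.9% that did not overlap. Fosb took 32.4% ± 5.06 in macrophages against 22.6% ± 2.37 in endothelial cells (SD, n = 3), and Fos 57.8% ± 5.76 and 52.7% ± 2.79 (SD, n = 3), the last with ranges that overlapped.
Among Jun, Junb and Jund, the share of Jun was 82.0% ± 1.99 in endothelial cells against 66.0% ± 5.94 in macrophages (SD, n = 3), without overlap. Jund took 10.6% ± 1.18 in endothelial cells against 23.5% ± 2.61 in macrophages (SD, n = 3), again without overlap, and Junb 7.40% ± 0.857 and 10.5% ± 3.48 (SD, n = 3), with overlap.
In whole islets the shares moved from library to library, that of Jun from 36.1 to 80.7% without Dox and from 51.8 to 88.2% with Dox. Fosl2 was the steadier, at 8.04 to 9.87% without Dox and 14.3 to 21.7% with Dox. No test was run on these shares, which concern RNA and not protein.

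**Figure D4:**
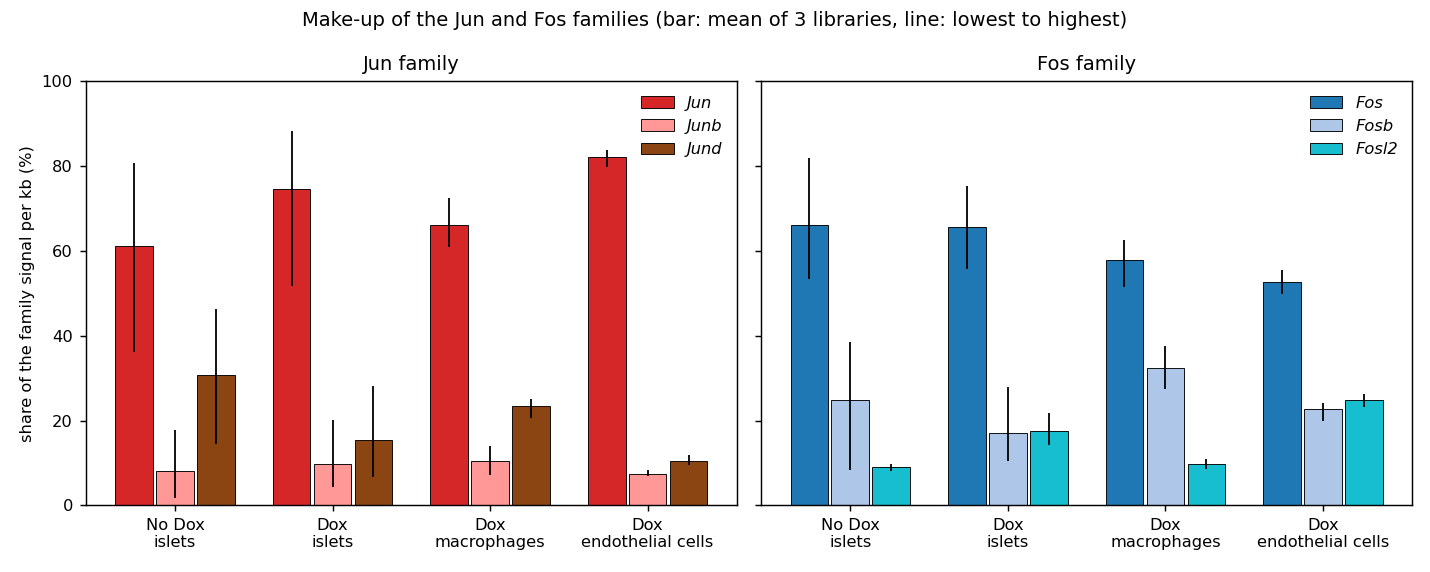
Share of each gene in the summed signal per kilobase of its family, in percent, for Jun, Junb and Jund (left) and Fos, Fosb and Fosl2 (right), with bars for the mean of 3 libraries and lines from the lowest to the highest library. Endothelial cells have the largest mean shares of Fosl2 and Jun, and the lines of whole islets are long for all genes but Fosl2.

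Other bZIP proteins that pair with Fos and Jun or compete with them were taken as a list of 13. Batf, known from lymphoid and dendritic cells, was at 262 ± 50.1 in macrophages, 2.95 ± 2.78 in endothelial cells and 13.9 ± 12.6 in Dox islets (SD, n = 3), and Batf3 at 291 ± 68.8, 6.85 ± 2.59 and 10.4 ± 7.16 (SD, n = 3). The Fos relative Fosl1 was at 46.1 ± 9.21 in endothelial cells and 2.91 ± 1.67 in macrophages (SD, n = 3). Each of these 3 passed the filter on low values (15.5) through the group where it is high, so that a tested difference there was bound to arise, and they are left out of the counts with macrophages.
Of the other 10, macrophages had 4 higher than endothelial cells, namely Jdp2 (log2 difference 3.36), Maff (1.77), Batf2 (1.09) and Mafg (1.06), and 1 lower, Atf7 (-0.94), with a median of 0.083, where 27.7% of all genes tested were higher and 31.5% lower. Against Dox islets, macrophages had 5 of 10 higher (21.3% of all genes), led by Jdp2 (4.10) and Maff (2.72), and Atf2 lower (-1.27), with a median of 0.79. Endothelial cells had 3 of 11 higher than Dox islets (11.5% of all genes, median 0.60), namely Mafk (1.21), Maff (0.95) and Atf7 (0.60), and Atf2 lower (-0.96, called in 6 of 15 alternatives). That count of 3 was 6 without Dox islets replicate 1, where 25.8% of all genes were called higher, and 5 with quantile normalization. It was 1 with no filter, without endothelial replicate 1 or 2 or without Dox islets replicate 3, and 0 without endothelial replicate 3. Between the islet groups 0 of 10 tested were called, and 0 had an unadjusted p under 0.05 with limma.

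Relatives of Egr1, Nr4a1 and Ier2 with Kruppel-like factors and the Egr corepressors made a list of 14. In macrophages 6 of 13 tested were higher than in endothelial cells (27.7% of all genes, median 0.65), led by Egr2, at 6656 ± 771 against 249 ± 44.1 (SD, n = 3; log2 difference 4.74), and Ier5 (3.15). Lower in macrophages were 4 (31.5% of all genes; 2 with the 4 groups together), namely the flow-responsive factors Klf2 (-1.01) and Klf4 (-0.57), with Klf10 (-0.73) and Nab1 (-0.45). Against Dox islets, macrophages had 8 of 13 higher (21.3% of all genes, median 1.36), with Nr4a3 (3.60) and Ier5 (3.50) first, and Nab1 lower (-0.75). Endothelial cells had 5 of 13 higher than Dox islets (11.5% of all genes, median 0.95), namely Egr3 (1.53), Ier3 (1.50), Klf2 (1.26), Nr4a2 (1.12) and Klf4 (1.10), and Egr2 lower (-2.14). Without Dox islets replicate 1, that count of 5 was 8 and the share of all genes 25.8%. Between the islet groups 3 of 13 rose with Dox (4.33% of all genes, median 0.79), namely Klf6 from 4276 ± 996 to 11452 ± 2927 (SD, n = 3; log2 difference 1.42, limma's adjusted p = 0.0369), Nab1 (1.37, limma's adjusted p = 0.0361) and Klf2 (1.31, limma's adjusted p = 0.0492). They were called in 6, 7 and 4 of 16 alternatives, and none was with median ratio rescaling, no filter or the library number term, or without Dox islets replicate 2 or 3 or No Dox islets replicate 1. Without No Dox islets replicate 2 the 1 gene of the list called was Egr2. Endothelial, macrophage and mural markers were all higher in every Dox islet library than in any without Dox. In sorted endothelial cells Klf6 averaged 15830 ± 1655, Nab1 2575 ± 281 and Klf2 4219 ± 489 (SD, n = 3), against 11452, 3198 and 1766 in Dox islets. In sorted macrophages Klf6 was higher than in endothelial cells (log2 difference 2.04), and Nab1 (-0.45) and Klf2 (-1.01) were lower. The part of these cell types in the rises with Dox was not tested.

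Kinases and factors that regulate the members, whether up or down, made a list of 16, with serum response factor, its partners, Creb1 and MAP kinases. Macrophages had 5 higher than endothelial cells (27.7% of all genes), namely the kinase gene Rps6ka1 (2.83), the p38 gene Mapk14 (1.67), Mkl1 (1.20), Atf1 (0.98) and Rps6ka5 (0.86), and 7 lower (31.5% of all genes), led by the coactivator Mkl2, at 2084 ± 123 against 20878 ± 1855 (SD, n = 3; log2 difference -3.32). The list's median was -0.16, and with the 4 groups together 3 were higher and 4 lower. Against Dox islets, macrophages had 4 higher (21.3% of all genes), Rps6ka1 (3.66), Mkl1 (1.94), Mapk14 (1.60) and Rps6ka5 (1.49), and 5 lower (31.4% of all genes; 3 without macrophage replicate 1), among them Mkl2 (-2.05), Elk3 (-1.57), Elk4 (-1.37) and Rps6ka3 (-0.82, called in 6 of 15 alternatives), with a median of -0.072. Endothelial cells had 2 higher than Dox islets, Mkl2 (1.27) and the Ets factor Elk3 (1.01), with a median of 0.33, against 11.5% of all genes. That count was 7 without Dox islets replicate 1, 5 with quantile normalization and 5 with the GC trend removed. With Dox, islets had 1 higher, Elk3 (1.08, limma's adjusted p = 0.0432, called in 5 of 16 alternatives), against 4.33% of all genes, and a median of 0.37. Elk3 averaged 13201 ± 747 in sorted endothelial cells (SD, n = 3) and 6527 ± 129 in Dox islets (SD, n = 3). Endothelial, macrophage and mural markers were all higher in every Dox islet library than in any without Dox. The part of these cell types in the rise of Elk3 was not tested.

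Feedback and stress genes often seen with cell dissociation, among them dual-specificity phosphatases, Zfp36 and heat shock genes, made a list of 31, of which 30 were tested. Macrophages had 22 higher than endothelial cells and 5 lower (median 1.06), against 27.7% and 31.5% of all genes. The phosphatase gene Dusp2 differed most, at 2185 ± 170 against 95.1 ± 18.4 (SD, n = 3; log2 difference 4.52), and lower in macrophages were Hspb1 (-3.95), Cyr61 (-3.42), Sgk1 (-1.79), Dusp4 (-0.96) and Rhob (-0.47). With the 4 groups fitted together, 14 were higher. Against Dox islets, macrophages had 19 higher (21.3% of all genes, median 1.50), led by Dusp2 (5.83) and Csrnp1 (4.21), and the same 5 genes lower, Cyr61 (-2.59), Hspb1 (-2.13), Dusp4 (-0.99), Sgk1 (-0.81) and Rhob (-0.74), against 31.4% of all genes. Rhob was called in 5 of 15 alternatives and Dusp4 in 11, and the 5 lower were 3 without macrophage replicate 1 or 2 or Dox islets replicate 2. Endothelial cells had 11 higher than Dox islets (11.5% of all genes) and 0 lower (median 0.56), with Csrnp1 (2.04) and the heat shock gene Hspa1a (1.98) first. That count of 11 ranged from 6 (without endothelial replicate 3 or Dox islets replicate 3, or with no filter) to 14, and it was 7 without endothelial replicate 1 or 2. Between the islet groups Dusp6 rose, from 591 ± 147 to 1581 ± 399 (SD, n = 3; log2 difference 1.42, limma's adjusted p = 0.0426, called in 5 of 16 alternatives), out of 30 with a median of 0.28, against 4.33% of all genes. It averaged 2677 ± 79.7 in sorted endothelial cells (SD, n = 3) and was higher still in sorted macrophages (log2 difference 0.77). The part of cell types in the rise of Dusp6 was not tested.

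Genes with the most similar course over the 12 libraries were ranked by the mean absolute difference in log2 of signal + 1, each gene centred on its own mean, over 15028 genes. To the mean course of the 10 members the nearest were Amdhd2 and Maff (0.20 each), then Pvrl1, Coro7 and C130039O16Rik (0.22 each). Fosb was nearest to Egr3 (0.24), Egr1 to Homer1 (0.18), Jun to Bach2 (0.16), Fos to Ptpn1 (0.17) and Ier2 to 1700017B05Rik (0.17). Fosl2 had the closest neighbour of any member, Slc20a1 (0.10), at 803, 1341, 3676 and 3681 as means of No Dox islets, Dox islets, macrophages and endothelial cells. Atf3 was nearest to Rab20 (0.33), Junb to Lrch4 (0.33), Jund to Khk (0.35) and Nr4a1 to Tmed1 (0.27). Among the members themselves, Fos and Jun were the closest pair (0.30), and the nearest member to Atf3, Fosb, was 0.83 away. The 12 points of each course fall into 4 groups, whose levels such neighbours share.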

How the data were processed

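The deposited values are the authors' normalized expression signal per gene, linear with a floor of 1. The submitters' processing notes list TopHat2 2.0 and mm9, with no role for either. How the values were normalized, counted and annotated, and whether strand was used, is not given in the sources used here. RNA was amplified (NuGEN Ovation) before library preparation, per the labels' protocols. Above the floor the values lie on whole multiples of a step of each library (99.9 to 100% of low values, within 0.1 step), but only 38.9 to 52.4% on multiples of 50 steps, so whole reads were not recovered and no count model was used.

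Of 22793 entries, 22711 genes were kept, the entry with the highest mean being used for symbols listed more than once, and 25 symbols stored as dates were restored. All 12 sample columns were mapped by their names, with 0 left over. Values were analysed as log2 of (signal + 1), which understates the change of low genes, with limma 3.58.1 in R 4.3.3 (variance trend, Benjamini-Hochberg over all genes tested, threshold 0.05) on the 6 libraries of each comparison. Genes needed a value of 15.5 or more (the 40th percentile of values other than 0) in at least 3 of the 6, and all 10 members passed in every comparison. The test was tested on simulated data, with each gene drawn independently. Deviations shared across the genes of a library, as with GC content here, were not simulated. That run therefore does not vouch for the calls. Length, exons and GC content came from GENCODE M1 (22660 genes matched), and tables and figures were made in Python 3.11.15.

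The text names all 10 members and, of 4 lists, the 2 genes with the largest absolute difference among those called, any group of 5 or fewer called, and the nearest genes by course. Maff, Jdp2, Batf2 and Mafg, outside that rule in comparisons of macrophages, and Egr2 in an alternative between islets were named after their values were seen. A gene that the rule names is not reported here. The members and lists were chosen with earlier results of these data known.

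Libraries that share a replicate number were checked for shared deviations from the group mean, over genes. For macrophages with endothelial cells the correlations were 0.23, 0.41 and 0.36, and the numbers were taken to pair the samples. They were -0.25, -0.54 and 0.16 for Dox with No Dox islets, 0.21, 0.04 and 0.03 for Dox islets with macrophages and 0.29, 0.00 and 0.07 for Dox islets with endothelial cells, and there the numbers were not taken to pair. Alternatives covered the filter, a pseudocount of 16, quantile normalization, median ratio rescaling, the 4 groups together, a replicate block, removal of each library's GC trend, leaving out libraries and, added after the data were seen, a term for the library number printed under the column names, which begins alike in 6 libraries. The GC trend was that of a library's deviation from its own group mean, so GC differences between groups stayed. Its removal narrows the spread within groups with no loss of degrees of freedom, so calls after it are less strict.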

Additional observations from a re-analysis of the deposited data

How the results depend on the processing

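Of the members' values in the alternatives, all 150 for macrophages against endothelial cells and all 150 for macrophages against Dox islets kept their direction, and 6 and 1 lost the call. For endothelial cells against Dox islets 5 of 150 changed sign, 7 gained and 12 lost the call, and for the islet groups 16 of 160 changed sign and 0 were called. The number of members called for endothelial cells against Dox islets, 4, was 1 with no filter and ranged from 2 to 8 when a library was left out. Genes called there, 4706, ranged from 3307 to 8167 (the last without Dox islets replicate 1). Between the islet groups, 829 genes were called, 97 with no filter, 1606 with the 4 groups together, 1706 with the GC trend removed, 1501 with the replicate block and the GC trend removed, 524 with the library number term and 302 without No Dox islets 2 and Dox islets 1. Leaving out a library gave 5 (Dox islets 2), 87 (Dox islets 3), 457 (No Dox islets 1) and up to 815. The replicate block changed no member's call where the numbers pair the samples (9 and 9), and for endothelial cells against Dox islets, where they share only a number, it gave 5 members in place of 4, adding Fosb; it gave 679 genes between the islet groups. With it, 4 upstream regulators were higher in endothelial cells than in Dox islets in place of 2, and between the islet groups 1 relative of Egr1 in place of 3, 0 upstream regulators in place of 1 and 0 feedback genes in place of 1.

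Between the islet groups, the log2 difference of Fos was -0.19 with quantile normalization and -0.062 with median ratio rescaling, and that of Atf3 -0.092 and -0.029. Leaving out a library moved Fos between -0.27 and 0.29, Fosb between -1.53 and 0.46, Junb between -0.30 and 1.63, Atf3 between -0.87 and 0.65, Ier2 between -0.33 and 0.82 and Nr4a1 between -0.46 and 1.42. The lowest of these came without No Dox islets replicate 3 for all but Junb (without Dox islets replicate 1). For endothelial cells against Dox islets, the library number term gave -0.019 for Jund and -0.011 for Ier2. Leaving out a library moved Junb there between -0.0050 (without Dox islets replicate 3) and 1.31, Jund between -0.14 and 0.92 and Ier2 between -0.089 and 0.71, the lowest of Jund and Ier2 without Dox islets replicate 2 and the highest of all 3 without Dox islets replicate 1. The cause was not tested. The spread of 3 islet libraries limits what can be seen in islets.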
